A study of Homo sapiens with 16 samples.

Results

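The nuclear genes for the respiratory chain and ATP synthase were described in 2 colon cancer cell lines, each carrying either GFP or dnLEF1. Members were taken by symbol: genes for NDUFA, NDUFB, NDUFC, NDUFS and NDUFV subunits, SDHA to SDHD, UQCR subunits with CYC1 and CYCS, the COX4 to COX8 subunits, and ATP5 subunits, without assembly factors, pseudogenes and antisense genes. Of 26485 gene symbols in the files, 104 began as the rule asks, 13 were left out and 91 were kept. They comprised 38 genes of complex I, 4 of complex II, 11 of complex III together with cytochrome c, 19 of complex IV and 19 of complex V. NDUFA4 and NDUFA4L2 were placed in complex IV, where the NDUFA4 protein is found. The symbol rule also took some genes that are not standard subunit genes, core or accessory. Among them are the readthroughs ATP5J2-PTCD1 and NDUFC2-KCTD14, ATP5S and ATP5SL (now DMAC2L and DMAC2), the retrocopy UQCRHL, and COX7A2L, a factor of supercomplexes.

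SW480 is a colon cancer line from a primary tumour and SW620 is from a lymph node metastasis of the same patient. Both have high Wnt signalling. The SW480 GFP and SW620 GFP groups are the mock controls, labelled Wnt high, and the SW480 dnLEF1 and SW620 dnLEF1 groups are labelled as Wnt inhibited. dnLEF1 is a dominant negative LEF1, a form of the transcription factor that cannot use beta-catenin. Each of the 4 groups had 4 libraries of polyadenylated RNA, 16 in all and all at passage 6. The design text gives each line as its own experiment, so differences between lines cannot be told apart from differences between experiments. How the constructs were delivered, and whether a group is a clone or a pool of cells, is not given in the sources used here.

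The respiratory chain lies in the inner mitochondrial membrane. Complex I takes electrons from NADH and complex II, which is also an enzyme of the citric acid cycle, takes them from succinate. Ubiquinone carries them to complex III, cytochrome c carries them on to complex IV, and complex IV passes them to oxygen. Complexes I, III and IV pump protons, and complex V, the ATP synthase, uses the returning protons to make ATP. All complexes but II also hold subunits encoded in mitochondrial DNA. No symbol of the mitochondrial genome was among those in the files, so those subunits were not analysed here. In colon cancer cells this chain works beside high glycolysis, and Wnt signalling has been linked to the balance between them.

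Gene counts ran from 17181204 to 26153506 per library. LEF1 itself stood at 52.6, 52.3, 48.8 and 52.9 CPM (counts scaled to the size of each library, with 1 scale for all 16) in SW480 GFP replicates 1 to 4 and at 273, 271, 269 and 173 CPM with dnLEF1. In SW620 it stood at 2.82 to 3.92 CPM with GFP and at 20.1 to 25.6 CPM with dnLEF1. The groups of neither line overlapped, and counts cannot separate the construct from the cells' own LEF1. Of 10 markers of colon epithelium, 8 were at 1 CPM or more in SW480 GFP, 6 in SW480 dnLEF1, and 7 in either SW620 group. CDX1 was at 0 in SW480 dnLEF1 and in both SW620 groups, and CDH17 in SW480 dnLEF1. The epithelial markers summed to 10726 to 12492 CPM in SW480 GFP, 7090 to 8512 in SW480 dnLEF1, 9935 to 12248 in SW620 GFP and 8533 to 10835 in SW620 dnLEF1. The summed level of 6 fibroblast markers was 4.74 to 7.33 CPM in SW480 GFP and 14.8 to 38.0 CPM in SW480 dnLEF1. Of these 6, only 2 had enough counts to be tested in SW480. With dnLEF1, 1 of them was higher (log2 2.54) and 1 lower (log2 -1.87), so the sum does not describe the list as a whole. Endothelial and leukocyte markers summed to at most 5.88 CPM in any library. The part of these marker shifts in the results that follow was not tested.

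Summed over the 91 genes, the respiratory chain took 9922 ± 471 CPM (SD, n = 4) in SW480 GFP, 11311 ± 879 in SW480 dnLEF1, 12330 ± 723 in SW620 GFP and 12353 ± 832 in SW620 dnLEF1. The sum was thus 1.14 times as high with dnLEF1 as with GFP in SW480, without overlap of the libraries, and 1.00 times as high in SW620, with overlap. Without dnLEF1, it was 1.24 times as high in SW620 as in SW480. Of the 5 sums by complex, those of complexes III, IV and V did not overlap between the SW480 constructs, at ratios of 1.14, 1.19 and 1.13. Those of complexes I and II overlapped, at ratios of 1.13 and 1.11. In bulk libraries, fewer cells that express a gene and less RNA per cell cannot be told apart.

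**Figure D1:**
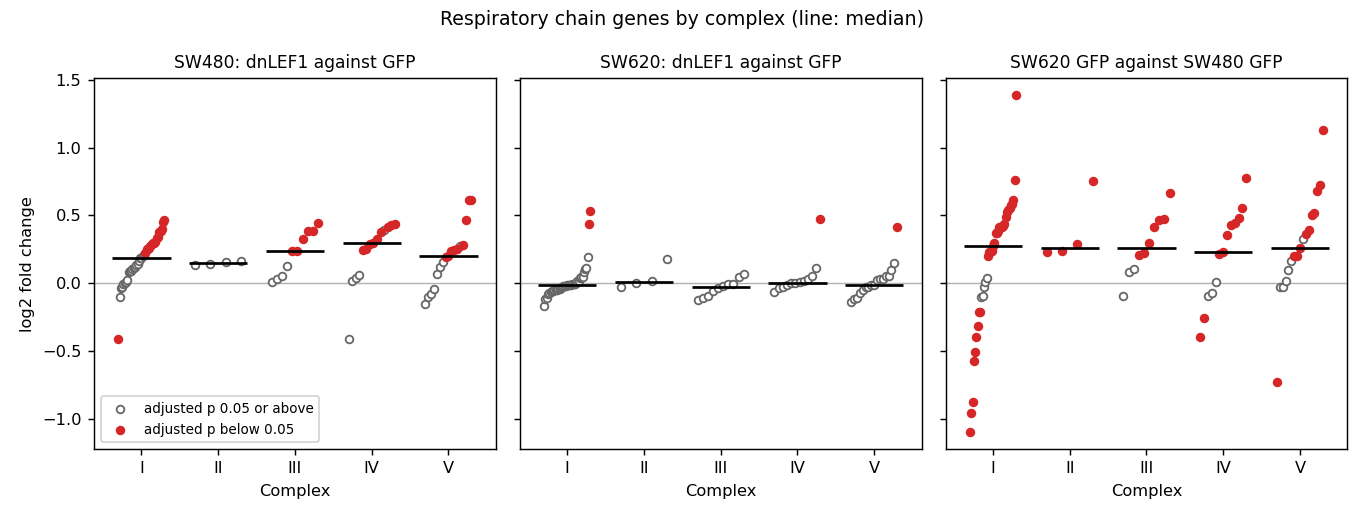
Log2 fold change (vertical axis) of each tested gene by complex (horizontal axis) in the 3 comparisons, with red points for adjusted p below 0.05 and a line at the median of each complex. SW480 shows many small rises in all complexes but II, SW620 shows 4 rises, and the GFP libraries of the lines differ by more, in both directions.

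In SW480, dnLEF1 was accompanied by small rises in many respiratory chain genes. Of 82 members tested, 39 rose and 1 fell (edgeR quasi-likelihood test, Benjamini-Hochberg adjusted p below 0.05), with a median log2 fold change of 0.20. Over all 14426 genes tested in this comparison, 24.2% were higher and 24.4% lower, with a median of -0.00, against 47.6% and 1.22% of the members. The rises reached 1.53-fold. By complex, 15 of 37 rose in complex I, 0 of 4 in complex II, 6 of 10 in complex III, 9 of 14 in complex IV and 9 of 17 in complex V.

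The size of this excess of rises moved with transcript length and with 2 libraries. Other genes with canonical transcripts under 1 kb (1029 tested) had a median log2 change of 0.20, and 36.2% of them were higher and 7.97% lower, while those of 4 kb or more had a median of -0.14, with 16.7% higher and 38.3% lower. Of the 82 members 45 had transcripts under 1 kb, and 27 of those rose. Among short genes at 100 CPM or more, 53.1% of 147 other genes and 14 of 20 members rose. With the length trend taken out of the counts, an alternative added after seeing the data, 23 members were higher and 11 lower (28.0% and 13.4%, against 24.4% and 24.2% of all genes), with a median of 0.04. Of the 40 calls, 21 were shared between the fits.

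Set against the GFP mean of its line, the median member of SW480 dnLEF1 replicates 1 to 4 stood at 0.28, 0.14, 0.08 and 0.32 on the log2 scale. The medians of other short genes in those libraries were 0.34, 0.12, 0.07 and 0.35. Replicates 1 and 4 thus carried the larger shift in both. Without these 2 libraries, also an alternative added after seeing the data, 22 members were higher and 3 lower. Over all 14780 genes tested in that fit, 19.9% were higher and 20.3% lower. The range among the SW480 GFP libraries alone was -0.10 to 0.07 for the members.

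**Figure D2:**
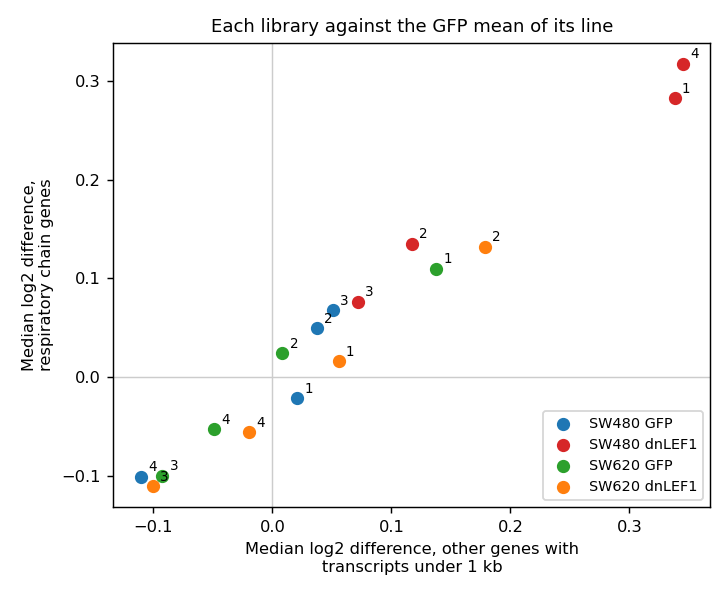
Each point is 1 of 16 libraries, numbered by replicate and coloured by group, with the median log2 difference from the GFP mean of its line for other genes with transcripts under 1 kb (horizontal axis) and for respiratory chain genes (vertical axis). SW480 dnLEF1 replicates 1 and 4 lie at the upper right, at 0.34 and 0.35 for short genes and 0.28 and 0.32 for respiratory chain genes.

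Of the 39 rises, 18 passed in all 16 alternatives, with the length trend and without replicates 1 and 4 among them, and so did the fall. The dnLEF1 libraries left in that last fit, replicates 2 and 3, were unusually alike. Their counts differed by a chi-square per degree of freedom of 2.27, against 12.6 to 21.0 for the other pairs of the group. The value was 1.96 for SW480 GFP replicates 2 and 3. Passing there may thus rest on a spread that is too narrow. The 18 were 6 genes of complex I, 5 of complex III, 4 of complex IV and 3 of complex V. How many of all genes passed in every alternative is not given here, for this or the other comparisons. The 18 are thus not set against a background. Of all genes, 24.4% were higher with the length trend taken out and 19.9% without replicates 1 and 4. The accounts of the complexes that follow give the 18 genes first.

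**Figure D3:**
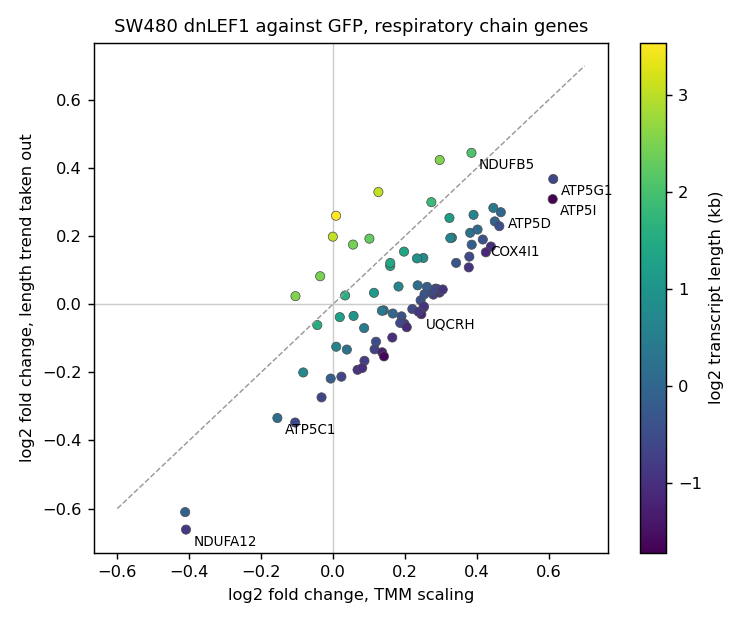
Log2 fold change of each tested respiratory chain gene in SW480, dnLEF1 against GFP, with TMM scaling (horizontal axis) and with the length trend taken out (vertical axis), coloured by log2 transcript length in kb. The dashed line marks equal values: the shorter genes tend to lie below it and the longest above, and ATP5G1, ATP5I and NDUFB5 stay above 0.30 on both axes.

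In complex I, the members that rose in all alternatives were NDUFV1, NDUFV3, NDUFS8, NDUFA6, NDUFA8 and NDUFB5. NDUFV1 carries the NADH-binding site and the flavin, and NDUFS8 carries iron-sulfur clusters. NDUFV1 stood at 166, 177, 172 and 164 CPM with GFP and at 233, 200, 198 and 221 CPM with dnLEF1, a log2 fold change of 0.33 ± 0.07 (SE, edgeR adjusted p = 0.00133). NDUFS8 rose 1.38-fold and NDUFA6, an accessory subunit of the LYR family, rose 1.32-fold. NDUFB5, an accessory subunit of the membrane arm on chromosome 3 (179604690 to 179627647, plus strand), stood at 112, 120, 116 and 112 CPM with GFP and at 151, 148, 141 and 160 CPM with dnLEF1. All 4 dnLEF1 libraries lay above all 4 GFP libraries for both NDUFV1 and NDUFB5. NDUFB5 had a log2 fold change of 0.39 ± 0.06 (edgeR adjusted p = 0.000181), and 0.44 with the length trend taken out.

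NDUFS1, the largest subunit of complex I and a carrier of iron-sulfur clusters, did not pass, at 145 ± 3.86 CPM with GFP and 145 ± 5.75 CPM with dnLEF1 (log2 0.01, edgeR adjusted p = 0.918). Its canonical transcript is long, 11660 bases, and with the length trend taken out it was higher, at 0.26 (edgeR adjusted p = 0.00452). NDUFS7, which holds the cluster nearest to ubiquinone, had a log2 fold change of 0.25 ± 0.10 (edgeR adjusted p = 0.0537). The single fall was in NDUFA12, an accessory subunit on chromosome 12 (94895297 to 95003748, minus strand). It stood at 99.5, 108, 99.2 and 91.2 CPM with GFP and at 75.2, 69.8, 71.8 and 82.0 CPM with dnLEF1, without overlap. Its log2 fold change was -0.41 ± 0.07 (edgeR adjusted p = 0.000407), and its 20 nearest measured neighbours on the chromosome had a median of -0.17, with 15 of 20 lower.

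Of the 4 genes of complex II, none passed in SW480 by edgeR, DESeq2 or limma voom, and 2 had an unadjusted p below 0.05 in edgeR. SDHA, the flavoprotein that oxidises succinate, stood at 181, 202, 191 and 189 CPM with GFP and at 222, 207, 194 and 228 CPM with dnLEF1. The highest GFP library lay above the lowest dnLEF1 library. Its log2 fold change was 0.16 ± 0.07 (edgeR adjusted p = 0.0704), SDHB, the iron-sulfur subunit, was at 0.17 ± 0.08 (edgeR adjusted p = 0.0968), and the membrane anchors SDHC and SDHD were both at 0.14. SDHA and SDHC passed with all 16 libraries in 1 fit, and SDHA and SDHB passed without SW480 dnLEF1 replicate 3.

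In complex III, UQCRC1, UQCRC2, CYC1, UQCR10 and UQCR11 rose in all alternatives. UQCRC1 and UQCRC2 are the core proteins, CYC1 is cytochrome c1, and UQCR10 and UQCR11 are its small subunits. UQCR11 stood at 74.1, 77.8, 76.8 and 66.7 CPM with GFP and at 113, 91.1, 90.6 and 107 CPM with dnLEF1, with no overlap and a log2 fold change of 0.45 ± 0.09 (edgeR adjusted p = 0.000668). UQCRC1 rose 1.25-fold, from 298 ± 22.3 to 373 ± 36.3 CPM. UQCRFS1, the Rieske iron-sulfur protein, did not pass, at a log2 fold change of 0.03 ± 0.07 (edgeR adjusted p = 0.715). CYCS, the soluble cytochrome c that also acts in apoptosis, was at 537 ± 57.1 CPM with GFP and 557 ± 37.5 CPM with dnLEF1 (edgeR adjusted p = 0.597). Complex III had the highest share of higher genes with the length trend taken out, 6 of 10, UQCRB in place of UQCRH.

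In complex IV, COX4I1, COX6B1, COX7A2 and COX7A2L rose in all alternatives. COX4I1 is the ubiquitous form of subunit 4, an early component of the nuclear part of the enzyme. It stood at 153, 162, 163 and 145 CPM with GFP and at 210, 200, 185 and 235 CPM with dnLEF1. No GFP library reached the lowest dnLEF1 library, and the log2 fold change was 0.42 ± 0.08 (edgeR adjusted p = 0.00056), or 0.19 with the length trend taken out. COX6B1, on the intermembrane side of the enzyme, rose 1.36-fold and COX7A2 rose 1.34-fold. COX5B rose 1.30-fold (edgeR adjusted p = 0.00247) but not with the length trend taken out. COX5A, which pairs with COX4I1 in early assembly, did not pass, at a log2 fold change of 0.04 ± 0.06 (edgeR adjusted p = 0.647), and was lower, at -0.13, with the length trend taken out (edgeR adjusted p = 0.0297).

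In complex V, ATP5G1, ATP5I and ATP5D rose in all alternatives. ATP5G1 (now ATP5MC1), on chromosome 17 (48892765 to 48895871, plus strand), is among the 3 genes that encode the c subunit of the membrane rotor. It stood at 69.0, 67.6, 65.7 and 54.4 CPM with GFP and at 113, 93.0, 82.0 and 104 CPM with dnLEF1, without overlap, and its log2 fold change was 0.61 ± 0.10 (edgeR adjusted p = 0.000198). The other c subunit genes, which encode the same mature protein, did not pass: ATP5G2 was at 0.12 ± 0.09 (edgeR adjusted p = 0.296) and ATP5G3 at 0.16 ± 0.08 (edgeR adjusted p = 0.113). ATP5I (now ATP5ME), the e subunit of the membrane part, stood at 42.5, 45.0, 45.7 and 37.9 CPM with GFP and at 68.6, 57.6, 56.7 and 77.9 CPM with dnLEF1, again without overlap, a rise of 1.53-fold. ATP5D, the delta subunit of the central stalk, rose 1.38-fold.

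The catalytic part of ATP synthase is built of alpha and beta subunits. ATP5B (now ATP5F1B), the beta subunit, rose 1.19-fold, from 1131 ± 66.2 to 1343 ± 129 CPM (edgeR adjusted p = 0.0179), but not with the length trend taken out or without replicates 1 and 4. ATP5A1 (now ATP5F1A), the alpha subunit, stood at 354 ± 8.23 CPM with GFP and 328 ± 12.3 CPM with dnLEF1 (log2 -0.10 ± 0.06, edgeR adjusted p = 0.164). With the length trend taken out, ATP5A1 was at 0.024 and ATP5B at 0.14, and neither passed. The difference between the genes was not tested. ATP5C1, the gamma subunit of the rotor, had a log2 fold change of -0.15 ± 0.07 (edgeR adjusted p = 0.0755), and was lower, at -0.33, with the length trend taken out (edgeR adjusted p = 0.000102).

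**Figure D4:**
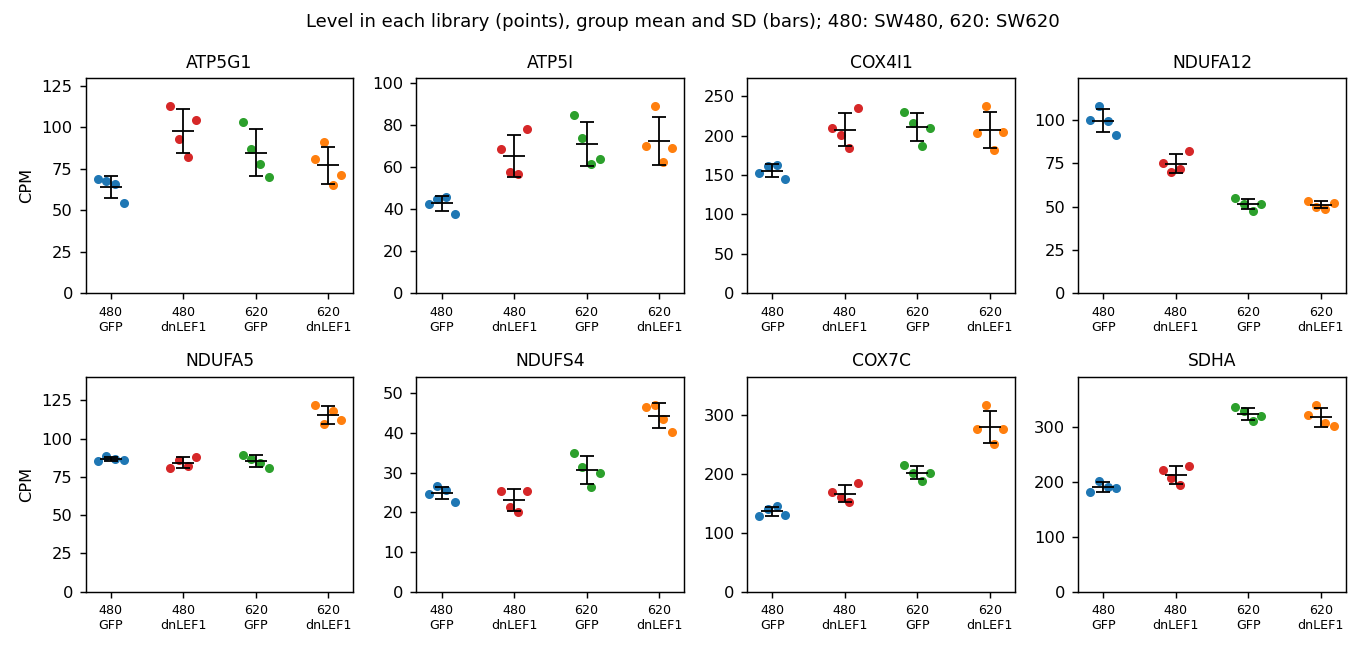
CPM (vertical axis, from 0, on the scale of all 16 libraries) of 8 respiratory chain genes in each library (points), with the mean and SD of each group of 4 (bars). ATP5G1, ATP5I and COX4I1 are higher and NDUFA12 lower with dnLEF1 in SW480, NDUFA5, NDUFS4 and COX7C are higher with dnLEF1 in SW620, and SDHA is higher in both SW620 groups than in both SW480 groups.

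Promoters are shown because the chain has known nuclear regulators: NRF1, GABP of the ETS family, and YY1. Whether these have a part in the changes described here was not tested. RefSeq windows on GRCh38.p14, from 250 bases before to 50 bases after the start site, were matched for 72 of 91 members. The letters GCATGCGC (NRF1 type), in either strand, were in 20.8% of the members and in 3.64% of 27233 other genes. Those other genes were taken whether or not they were expressed in these lines, so the shares do not compare expressed genes alone. CCGGAAG (ETS or GABP type) was in 27.8% against 12.1%, and ATGGCGG (YY1 type) in 29.2% against 6.60%. CACGTG (E-box) was in 9.72% against 8.77%. ATCAAAG (TCF or LEF type) was in 0 of 72 members and in 3.18% of other genes. Over all 35116 windows of that length the shares were 3.05%, 10.3%, 5.55%, 7.26% and 2.62% in the same order.

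The members that rose in SW480 and those tested that did not rise were described by the same letters. The NRF1 type was in 18.8% of 32 risen members and 25.0% of 36 others, the YY1 type in 31.2% and 30.6%, the ETS type in 37.5% and 22.2%, and the E-box in 15.6% and 5.56%. Such matches are letters in a window, not binding sites. For the following genes, 120 bases, 5′ to 3′ on the gene's own strand, are printed from RefSeq with NRF1, ETS and YY1 type letters in capitals. Each stretch ends before the RefSeq start site, or before the GENCODE gene start where that lies further upstream. UQCR11 (chr19:1605474-1605593, minus strand) holds the ETS letters in both orientations, COX5B (chr2:97645942-97646061, plus strand) and UQCRH (chr1:46303578-46303697, plus strand) hold them once, and ATP5I (chr4:674331-674450, minus strand) holds the NRF1 letters. All 4 rose in SW480, COX5B and UQCRH not with the length trend taken out. SDHD (chr11:112086704-112086823, plus strand), which did not pass in SW480, holds all 3 types and was chosen for contrast after its values were seen.
UQCR11: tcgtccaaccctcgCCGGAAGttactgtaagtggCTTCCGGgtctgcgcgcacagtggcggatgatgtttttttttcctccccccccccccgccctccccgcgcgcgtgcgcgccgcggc
COX5B: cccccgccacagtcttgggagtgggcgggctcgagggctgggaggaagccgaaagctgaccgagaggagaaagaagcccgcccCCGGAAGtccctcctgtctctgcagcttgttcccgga
UQCRH: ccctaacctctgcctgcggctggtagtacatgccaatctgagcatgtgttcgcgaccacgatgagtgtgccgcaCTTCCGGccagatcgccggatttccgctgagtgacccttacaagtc
ATP5I: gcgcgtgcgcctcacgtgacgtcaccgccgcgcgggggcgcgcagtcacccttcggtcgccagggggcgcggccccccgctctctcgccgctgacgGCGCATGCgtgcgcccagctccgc
SDHD: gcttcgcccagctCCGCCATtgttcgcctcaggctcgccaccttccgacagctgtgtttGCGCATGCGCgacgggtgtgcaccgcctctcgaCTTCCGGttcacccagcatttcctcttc

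In SW620, dnLEF1 was accompanied by rises in 4 respiratory chain genes and by no falls. Of 80 members tested, NDUFA5, NDUFS4, COX7C and ATP5J2 rose, and the median log2 fold change was -0.01. Over all 13336 genes tested 6.03% were higher and 2.43% lower, so 4 of 80 is close to the background. DESeq2 and limma voom also called 0 lower, and 1 member had an unadjusted p below 0.05 downward in edgeR. The same 4 genes passed in all 15 alternatives.

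NDUFA5, an accessory subunit of the peripheral arm of complex I on chromosome 7 (123536997 to 123557904, minus strand), stood at 89.4, 86.8, 84.3 and 80.8 CPM with GFP and at 122, 109, 118 and 112 CPM with dnLEF1. Its log2 fold change was 0.44 ± 0.06 (edgeR adjusted p = 0.000201). NDUFS4, an accessory subunit of the same arm on chromosome 5 (53560633 to 53683338, plus strand), stood at 34.9, 31.4, 26.5 and 29.9 CPM with GFP and at 46.6, 47.1, 43.6 and 40.3 CPM with dnLEF1 (log2 0.53 ± 0.08, edgeR adjusted p = 0.000838). The libraries of the constructs did not overlap for either gene.

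COX7C, a small subunit of complex IV on chromosome 5 (86617928 to 86620962, plus strand), stood at 215, 202, 188 and 202 CPM with GFP and at 276, 317, 250 and 275 CPM with dnLEF1 (log2 0.47 ± 0.07, edgeR adjusted p = 0.000504). ATP5J2 (now ATP5MF), the f subunit of ATP synthase on chromosome 7 (99448475 to 99466186, minus strand), stood at 78.7, 83.2, 71.0 and 73.8 CPM with GFP and at 106, 115, 92.1 and 96.5 CPM with dnLEF1 (log2 0.41 ± 0.07, edgeR adjusted p = 0.00234). Neither gene's groups overlapped. ATP5J2 overlaps the readthrough ATP5J2-PTCD1, so reads of the shared part may be missing from its count.

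The 4 genes that rose in SW620 lay among neighbours that were higher too. The 20 nearest measured genes that are no members had a median log2 fold change of 0.43 around NDUFA5, 0.39 around ATP5J2 and 0.48 around COX7C, and all 20 were higher in each case. Around NDUFS4 the median was 0.31, with 17 of 20 higher. NDUFA5, ATP5J2 and COX7C differed from the median of their neighbours by 0.01, 0.02 and -0.01, and NDUFS4 by 0.22. A median of at least 0.2 among neighbours was found around 5 members, of which 4 rose. NDUFB2, on chromosome 7, was the fifth, at 0.20 ± 0.10 (edgeR adjusted p = 0.323) beside a neighbour median of 0.25. Of the 75 members elsewhere, 0 rose. What moved these neighbourhoods was not tested.

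**Figure D5:**
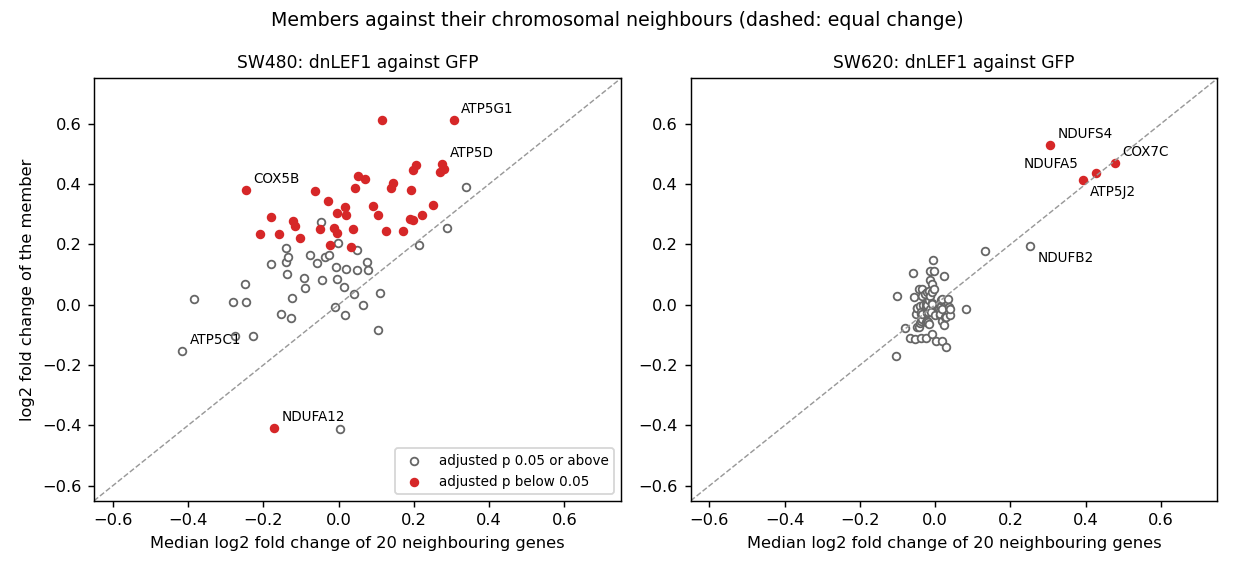
Log2 fold change of each respiratory chain gene (vertical axis) against the median of its 20 nearest measured neighbours on the chromosome (horizontal axis), in SW480 and SW620, with red points for adjusted p below 0.05. In SW620 the 4 red points lie at neighbour medians of 0.31 to 0.48, whereas in SW480 red points lie at neighbour medians both below and above 0.

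In SW480 the members' changes also followed their neighbours in part, but rises were not limited to such places. There, 73 of 82 members lay above the median of their neighbours, by a median of 0.19. Of 10 members whose neighbours had a median of 0.2 or more, 7 rose (median member 0.42), of 63 with neighbours between -0.2 and 0.2, 30 rose (median 0.19), and of 9 with neighbours at -0.2 or below, 2 rose (median 0.0090). The neighbours of COX7C in SW480 had a median of -0.18, while COX7C itself rose 1.22-fold, a call lost with the length trend taken out (log2 0.04, edgeR adjusted p = 0.51).

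Core subunits did not pass in SW620, which does not show that their levels were equal. SDHA stood at 324 ± 11.4 CPM with GFP and 318 ± 17.7 CPM with dnLEF1, and ATP5B at 1818 ± 69.0 and 1752 ± 48.9 CPM. COX4I1 ranged from 187 to 230 CPM with GFP and from 182 to 237 CPM with dnLEF1. For these 3 genes the groups overlapped and the adjusted p in edgeR was 0.837, 0.636 and 0.901. ATP5G1, which rose in SW480, was at 84.6 ± 14.1 CPM with GFP and 77.0 ± 11.3 CPM with dnLEF1 in SW620 (log2 -0.14 ± 0.11, edgeR adjusted p = 0.563).

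Between the lines without dnLEF1, the chain differed more than between constructs. Line and experiment cannot be told apart in this comparison. Of 81 members tested, 52 were higher and 12 lower in SW620 GFP than in SW480 GFP, with a median log2 fold change of 0.26. Over all 14350 genes 37.7% were higher and 40.3% lower, against 64.2% and 14.8% of the members. Higher members were 23 of 37 in complex I, 4 of 4 in complex II, 7 of 10 in complex III, 8 of 13 in complex IV and 10 of 17 in complex V. Lower members were 9 in complex I, 2 in complex IV and 1 in complex V. Of these calls, 47 higher and 12 lower passed in all alternatives. With the length trend taken out there were 48 and 18 (59.3% and 22.2%, against 35.2% and 43.5% of all genes), with a median of 0.16. Of 43 members at 100 CPM or more, 31 were higher, while 51.7% of other genes at that level were higher and 30.2% lower.

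NDUFB8, an accessory subunit of complex I on chromosome 10 (100523740 to 100530000, minus strand), was at 39.1, 39.9, 42.4 and 37.9 CPM in SW480 GFP and at 111, 109, 97.4 and 101 CPM in SW620 GFP. The SW620 level was 2.61-fold higher (log2 1.39 ± 0.06, edgeR adjusted p = 4.42e-11), and the neighbours had a median of 0.15. ATP5G2 (now ATP5MC2), a c subunit gene on chromosome 12, was 2.19-fold higher, at 352 ± 18.4 against 160 ± 12.4 CPM, beside a neighbour median of 0.39. ATP5B was 1.60-fold higher. SDHA, on chromosome 5 (218303 to 257082, plus strand), was 1.69-fold higher, and its 12 measured neighbours, fewer because it lies near the end of the chromosome, were all higher with a median of 0.59.

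Among the lower genes, NDUFB5 was at 53.9 ± 1.43 CPM in SW620 GFP against 115 ± 4.02 CPM in SW480 GFP (log2 -1.10 ± 0.05, edgeR adjusted p = 1.05e-10), beside neighbours at -0.55. NDUFA12 was at 51.3 ± 2.96 against 99.4 ± 6.71 CPM (log2 -0.96), although its neighbours had a median of 0.27. NDUFB1, an accessory subunit, had a log2 fold change of -0.88 beside neighbours at -0.79, and ATP5J2 of -0.73 beside neighbours at -1.02. The 3 c subunit genes of ATP synthase thus differed in the sizes of their line differences, at log2 0.39 for ATP5G1, 1.13 for ATP5G2 and 0.20 for ATP5G3.

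The effect of dnLEF1 was compared between the lines as an interaction over all 16 libraries, with a positive value where the change was more upward in SW620. Each line was its own experiment, so a different effect may belong to the line or to the experiment. Of 82 members tested, 3 were higher and 21 lower, with a median of -0.18, while 16.2% of 14926 genes were higher and 12.3% lower. The 3 were NDUFS4 (0.64 ± 0.13, edgeR adjusted p = 0.000853), NDUFA5 (0.47 ± 0.08, edgeR adjusted p = 7.12e-05) and NDUFA12 (0.40 ± 0.09, edgeR adjusted p = 0.0026). The lower ones were 7 genes of complex I, 5 of complex III, 5 of complex IV and 4 of complex V, and none of complex II. The neighbours of NDUFS4 and NDUFA5 differed the same way, with medians of 0.51 and 0.31, and those of NDUFA12 had a median of 0.18. Among the 21, ATP5G1 had the most negative difference, at -0.75 ± 0.17 (edgeR adjusted p = 0.00208).

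The 3 higher members and 7 of the 21 lower ones passed in all 23 alternatives: ATP5G1, ATP5D, COX4I1, COX7A2L, NDUFA6, NDUFB5 and UQCRC2. Without SW480 dnLEF1 replicates 1 and 4, those 7 were the lower members that passed. Over all 15287 genes tested in that fit, 13.1% were higher and 9.69% lower, so 7 lower members are close to the background. Leaving out SW480 GFP replicate 4 gave 13 lower, and leaving out SW620 dnLEF1 replicate 2 gave 33. COX7C rose in both lines, and its difference between them was 0.18 ± 0.10 (edgeR adjusted p = 0.198). That p does not show equal changes, and with the length trend taken out the difference was 0.36 (edgeR adjusted p = 0.000113). ATP5J2 was also called in both lines. In SW480 its log2 fold change was 0.25 ± 0.08 (edgeR adjusted p = 0.0233), with overlapping groups, and it was lost with the length trend taken out. Its line difference was 0.17 ± 0.11 (edgeR adjusted p = 0.282), or 0.37 with the length trend taken out (edgeR adjusted p = 0.000143).

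Isoform genes known from other tissues gave few counts in these lines. COX4I2, and COX6A2, the heart and muscle form, had 0 counts over all 16 libraries, where COX4I1 stood at 256 and COX6A1 at 334 CPM per kb of transcript. COX7A1, also a muscle form, had 1 count and COX8C had 7. COX7B2 had 20 counts, all of them in SW480 dnLEF1, and passed there when no filter on low counts was used. COX6B2, known from testis, had 147 counts, or 0.261 CPM per kb, against 364 CPM per kb for COX6B1. Its counts were 62 in SW480 GFP, 83 in SW480 dnLEF1, 2 in SW620 GFP and 0 in SW620 dnLEF1. It passed between the GFP groups when no filter on low counts was used. NDUFA4L2, a hypoxia-induced relative of NDUFA4, had 176 counts, or 0.532 against 114 CPM per kb. A count of 0 allows up to 3 counts over the libraries, for counting error only. The retrocopy UQCRHL had 61 counts and may share reads with UQCRH.

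Other mitochondrial genes were read from lists beside the chain. In SW480, 28 of 76 mitochondrial ribosomal protein genes rose and 1 fell (median 0.15), and 8 of 20 genes of the citric acid cycle and pyruvate dehydrogenase rose and 2 fell (median 0.10). Of 50 assembly factors 11 rose and 3 fell (median 0.09). Over all genes 24.2% were higher and 24.4% lower. The share of assembly factors that rose, 22%, was near that background. The shares of mitochondrial ribosomal protein and citric acid cycle genes were 36.8% and 40%. Among genes outside the chain, 36.2% of those with transcripts under 1 kb and 32.8% of those of 1 to 2 kb were higher. The part of transcript length in the list shares was not tested. The summed mitochondrial ribosomal protein level was 1.09 times as high with dnLEF1, with overlap of the libraries. Among assembly factors, NDUFAF3 of complex I rose 1.35-fold. COX20, which helps mature a complex IV subunit, had a log2 fold change of -0.57 ± 0.07. LYRM7, an assembly factor for the Rieske protein, was at -0.55 ± 0.08. MDH2, mitochondrial malate dehydrogenase, rose 1.33-fold in SW480 and OGDH, of the oxoglutarate dehydrogenase complex, rose 1.27-fold, while DLAT and PDHX of pyruvate dehydrogenase fell, at log2 -0.27 and -0.26. The fit with the length trend taken out covered all genes, but its values for genes outside the chain are not reported here.

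In SW620, 3 of 50 assembly factors, 3 of 20 citric acid cycle genes and 2 of 76 mitochondrial ribosomal protein genes rose, against 6.03% of all genes, and these 3 lists had no fall. All 8 lay among neighbours with a median of at least 0.2. They were NDUFAF2, MRPS27 and MRPS36 on chromosome 5, SDHAF3, DLD and MDH2 on chromosome 7, and NDUFAF5 and IDH3B on chromosome 20. MDH2, for example, had a log2 fold change of 0.36 ± 0.06 beside a neighbour median of 0.33, with 20 of 20 higher.

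Of 20 tested regulators of mitochondrial biogenesis, 3 rose and 7 fell in SW480, and of 18 tested in SW620 3 fell and 0 rose. These are 15% and 35% in SW480, against 24.2% and 24.4% of all genes, and 16.7% lower in SW620, against 2.43%. PPARGC1A, which encodes the coactivator PGC-1alpha, stood at 0.435, 0.492, 0.476 and 0.365 CPM in SW480 GFP and at 1.40, 2.24, 2.19 and 2.45 CPM in SW480 dnLEF1. It rose 4.65-fold there (log2 2.22 ± 0.26, edgeR adjusted p = 7.74e-06), from a low level. In SW620 it fell 4.64-fold, from 0.723 ± 0.156 to 0.145 ± 0.0884 CPM (edgeR adjusted p = 0.0037). The groups overlapped in neither line.

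PPARGC1B, a related coactivator, fell 1.65-fold in SW620, from 8.38 ± 0.535 to 5.06 ± 0.372 CPM (edgeR adjusted p = 0.000673), and did not pass in SW480. ESRRA, the nuclear receptor that works with these coactivators, rose 1.32-fold in SW480. Its relatives ESRRG and ESRRB, both at low counts, fell there: ESRRG had 92 counts over the 4 GFP libraries and 2 over the 4 dnLEF1 libraries (edgeR adjusted p = 4.64e-06), and ESRRB had 115 and 28 (edgeR adjusted p = 0.000254). GABPA, the DNA-binding part of GABP, and TFAM, the mitochondrial DNA packaging and transcription factor, fell in SW480. Their falls were 0.35 and 0.34 on the log2 scale, against the direction of the median member. Changes in SW480 moved with transcript length, and GABPA and TFAM were not set against genes of like length. NRF1 did not pass in either line (log2 -0.13 and 0.02), nor did MYC (0.05 and -0.10). TFAM was 2.23-fold and MYC 1.40-fold higher in SW620 GFP than in SW480 GFP.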

How the data were processed

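Polyadenylated RNA of 16 libraries was compared, 4 in each of 4 groups taken from the labels. The authors deposited whole-number counts for each gene, not normalized. Trimmomatic, TopHat2, HTSeq, DESeq2 and the build hg38 are named in the submitters' processing notes. Tool versions, annotation and strandedness are not given there, so a gene and a partner that overlaps it may share reads. The labels do not say whether libraries came from separate cultures, so the spread behind each p-value may be only technical. The 5 summary lines that name no gene were left out. Their share was 20.0% to 24.3% for 15 libraries, and 50.5% for SW620 GFP replicate 3. Reads that align to several places are in those lines, so near-identical copies are undercounted.

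Tests used edgeR 4.0.16 under R 4.3.3 (TMM, filterByExpr, quasi-likelihood test, Benjamini-Hochberg over all genes, called below 0.05), on the 8 libraries compared, or on all 16 for the interaction. The filter kept 82, 80, 81 and 82 of the 91 members in SW480, in SW620, between the GFP groups and in the interaction. The 9 members not tested in SW480 were COX4I2, COX6A2, COX7A1, COX7B2, COX8C, ATP5L2, ATP5J2-PTCD1, NDUFC2-KCTD14 and UQCRHL. Each SE was derived as the size of the log2 fold change divided by the root of its F statistic. CPM use effective library sizes of all 16 libraries. Alternatives were size factors of DESeq2, no filter, DESeq2 1.42.0, limma voom (3.58.1), all 16 libraries in 1 fit, a replicate block, and leaving out each library. After seeing the data 2 were added: a loess trend of counts on transcript length taken out, and SW480 dnLEF1 replicates 1 and 4 left out. The test was checked on simulated counts.

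Genes were placed on hg38 with GENCODE 44, older symbols through RefSeq synonyms; all 91 members were placed. Length is that of the canonical transcript. Neighbours are the 10 nearest tested genes on each side that are no members and have a mean log2 CPM above 2.

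The members, the lists and the rule for named genes were chosen with earlier results of these data known. The rule names, per complex and comparison, up to 3 called members each way with the smallest adjusted p, up to 4 each way for the interaction, up to 2 per other list, LEF1, and fixed core subunits, isoforms and regulators. Members that passed in all alternatives, or that make up a small count, were also named after their values were seen.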

Additional observations from a re-analysis of the deposited data

Results flagged for a closer look

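Of 286 groups of 4 libraries examined, 9 held a library far from the other 3, fewer than the 1 in 20 groups that chance flags. ATP5D was at 103 CPM in SW620 GFP replicate 1 (others 80.2 to 82.8). NDUFB1 was at 72.8 CPM in SW480 dnLEF1 replicate 4 (others 57.8 to 58.7), and CYC1 at 159 CPM in SW480 dnLEF1 replicate 1 (others 121 to 124). CYCS was at 622 CPM (others 503 to 516) and NRF1 at 30.2 CPM (others 25.7 to 26.4) in SW480 GFP replicate 1. PDHX was at 52.8 CPM in SW480 dnLEF1 replicate 4 (others 48.2 to 48.4). LEF1 was at 48.8 CPM in SW480 GFP replicate 3 (others 52.3 to 52.9) and at 173 CPM in SW480 dnLEF1 replicate 4 (others 269 to 273), the lowest LEF1 level of that group. The summed level of complex V was 2925 CPM in SW480 GFP replicate 4 (others 3202 to 3240).

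Among the genes named by rule, 20 differed between the lines in the effect of dnLEF1 (interaction in edgeR, adjusted p below 0.05). On the log2 scale, the difference (SW620 minus SW480) was NDUFA12 0.40, NDUFA5 0.47 and NDUFS4 0.64 among those more upward in SW620. Of those more upward in SW480, the difference was NDUFB5 -0.34, NDUFA6 -0.47, NDUFS8 -0.49 and NDUFV1 -0.33 in complex I. In complex III it was UQCR11 -0.40, UQCR10 -0.39, UQCRC1 -0.36, UQCRC2 -0.33 and CYC1 -0.49. In complex IV it was COX4I1 -0.44, COX7A2 -0.42, COX5B -0.32 and COX7A2L -0.33, and in complex V ATP5G1 -0.75, ATP5I -0.58, ATP5D -0.54 and ATP5B -0.30.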

How the results depend on the processing

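With the length trend taken out, members higher in SW480 went from 39 to 23 and members lower from 1 to 11, and 6 of the 39 turned negative without passing: ATP5J2, NDUFB9, UQCRH, COX6A1, ATP5O and NDUFS6, at -0.0292, -0.0141, -0.0221, -0.00935, -0.0356 and -0.00689 on the log2 scale. The interaction then had 6 higher members instead of 3. That alternative subtracts the trend with length by construction. Without SW480 dnLEF1 replicates 1 and 4, SW480 had 22 higher and 3 lower members, against 19.9% and 20.3% of all genes. In the same setting the interaction had 7 lower members, against 9.69% of all genes. All 16 libraries in 1 fit gave 2 lower members in SW480. Leaving out each library in turn gave 29 to 47 higher and 1 to 2 lower members in SW480, and 13 to 33 lower in the interaction; the cause was not tested. The replicate numbers were not taken to pair the samples, since not every same-numbered pair correlated above 0.1: deviations correlated at -0.218 to 0.316 in SW480, -0.067 to 0.521 in SW620 (0.521, 0.4 and 0.361 for numbers 1, 3 and 4, and -0.067 for number 2) and -0.153 to 0.256 between the GFP groups. With a replicate block the higher and lower members were 35 and 1 in SW480, 6 and 0 in SW620, 53 and 12 between the GFP groups, and 3 and 28 in the interaction. Between the GFP groups and in SW620, all counts stayed within 1.5 times of 52 and 12, and of 4 and 0. The filter on low counts left out 9 members in SW480, of which COX7B2 passed without it.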
